A study of Mus musculus with 23 samples.

Results

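Transcripts of the AP-1 transcription factors were quantified in tubules spanning the connecting tubule and cortical collecting duct. These tubules came from control mice and from mice with an induced mineralocorticoid receptor knockout. The genes were Fos, Fosb, Fosl1, Fosl2, Jun, Junb, Jund and Atf3, found by symbol among the 54393 genes of the deposited tables. All 8 were present, each under 1 gene ID. AP-1 is a dimer of basic leucine zipper proteins. Fos family proteins cannot pair with themselves and bind DNA as heterodimers with Jun family proteins, whereas Jun proteins can also form homodimers. Several of the genes are immediate early genes, which are transcribed within minutes of growth factor, stress or injury signals without new protein synthesis. In kidney tubules they are known for their induction by ischemia and by the handling of tissue outside the body.

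The tubules were microdissected from kidneys. All mice carried Pax8-rtTA, TRE-LC-1 and MRflox/flox, a floxed Nr3c2 gene with a doxycycline-dependent Cre whose activator is expressed from the Pax8 promoter, active along the renal tubule. KO-LK (n = 6) were receptor knockout mice on a low potassium diet, and KO-NK (n = 6) were knockout mice on a normal potassium diet. Both had drunk doxycycline at 2 mg/ml in 5% sucrose for 2 weeks, followed by a washout of 2 weeks on a rescue diet. CT-HK (n = 6) and CT-NK (n = 5) were controls of the same genotype on a high and a normal potassium diet, which had drunk 5% sucrose with no doxycycline. Each diet lasted 4 days. Knockout thus cannot be told apart from doxycycline in any comparison, and the labels do not say whether controls ate the rescue diet. The labels give no ages and do not say that each library came from a separate mouse, and p-values therefore cover the library-to-library spread, which may be technical.

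The 23 libraries held 16158408 to 34154475 estimated counts. Levels are given in CPM, which divide each estimated count by the TMM-scaled total of its library. Adjusted p-values are Benjamini-Hochberg values from edgeR's quasi-likelihood F test over 25829 genes, and a gene is called at an adjusted p under 0.05. Nr3c2 averaged 54.3 ± 15.6 CPM in KO-LK and 58.8 ± 10.4 CPM in KO-NK, against 108.2 ± 25.8 CPM in CT-HK and 108.0 ± 33.2 CPM in CT-NK (SD). Its fall was called in all 4 comparisons of knockout with control, by 0.88 to 1.00 on the log2 scale. Sgk1, the kinase that aldosterone induces through this receptor, was at 30.3 to 62.7 CPM in KO-LK and 43.9 to 272.2 CPM in KO-NK, against 648.4 to 981.8 CPM in CT-HK and 523.7 to 728.7 CPM in CT-NK. None of the 15 markers of connecting tubule and principal cells was at 0 in any library, and Aqp2, the water channel of principal cells, was at 718.9 CPM or more in each. In 8 libraries of all 4 groups more than 2500 CPM fell on olfactory and vomeronasal receptor genes. AP-1 calls that end without these 8 libraries are given both ways. Values of the other named genes are given with all libraries only.

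The stretches around the start sites of Fos, Jun and Atf3 are shown as examples of windows that hold matches to the searched motifs. RefSeq promoters of GRCm38.p6 were found for 7 of the 8 genes, each covering 250 bases before and 50 after the start site. The windows are chr12:85473640-85473939 on the plus strand for Fos, chr4:95052173-95052472 on the minus strand for Jun and chr1:191183284-191183583 on the minus strand for Atf3. Capitals mark matches, on either strand, to the AP-1 site TGANTCA, its form with 1 more base TGANNTCA, or the core of the cyclic AMP response element TGACGT.
Fos: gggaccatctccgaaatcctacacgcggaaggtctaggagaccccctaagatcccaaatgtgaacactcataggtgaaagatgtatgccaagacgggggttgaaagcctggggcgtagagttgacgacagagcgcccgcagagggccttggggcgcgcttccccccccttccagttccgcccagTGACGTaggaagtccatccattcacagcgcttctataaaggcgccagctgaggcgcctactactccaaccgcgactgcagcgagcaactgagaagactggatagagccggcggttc
Jun: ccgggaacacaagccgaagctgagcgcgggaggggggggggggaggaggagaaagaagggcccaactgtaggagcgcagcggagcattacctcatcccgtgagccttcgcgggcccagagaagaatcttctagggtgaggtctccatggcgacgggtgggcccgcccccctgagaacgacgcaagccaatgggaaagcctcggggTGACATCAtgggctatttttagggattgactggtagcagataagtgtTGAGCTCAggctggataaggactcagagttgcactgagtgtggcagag
Atf3: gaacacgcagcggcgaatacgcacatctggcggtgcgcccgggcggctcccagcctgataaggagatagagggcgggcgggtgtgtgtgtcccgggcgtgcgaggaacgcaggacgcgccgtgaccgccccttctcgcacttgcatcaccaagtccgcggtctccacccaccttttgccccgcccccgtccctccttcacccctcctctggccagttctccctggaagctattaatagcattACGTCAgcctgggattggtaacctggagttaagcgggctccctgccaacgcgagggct

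The Fos window holds TGACGT 66 bases before the start site and a TATAAA box 33 bases before it. The Jun window holds TGACATCA 45 bases before the start and TGAGCTCA just after it. The Atf3 window holds that core as ACGTCA, read from the other strand, 8 bases before the start. RefSeq and GENCODE place some starts apart: the RefSeq start lies 34706 bases inside the GENCODE gene for Atf3, 671 bases inside it for Fosl2 and 1210 bases before it for Jund. The windows of Fosb, Fosl2 and Junb held none of these 3 motifs, though that of Junb held TATAAA at the RefSeq start site. The Jund window, upstream of the GENCODE gene, held TGAAATCA 61 bases before the RefSeq start site. No window held TGANTCA or a CArG box, the serum response element. The windows end 250 bases before the start site, and sites further upstream were not searched. Among all 32851 RefSeq windows of this length, 7.81% held TGANTCA, 14.1% TGANNTCA, 7.51% TGACGT, 13.6% TATAAA and 1.63% a CArG box. The matches are a description of these letters only.

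Fos, on chromosome 12 (85473890 to 85477273, plus strand, 4 exons), encodes c-Fos, the short-lived partner that gives the family its name. It had 2876.8, 4484.3 and 4816.1 CPM (lowest, median and highest) in KO-LK and 4014.7, 5121.4 and 5656.1 CPM in KO-NK, against 386.9, 804.7 and 1484.9 CPM in CT-HK. The 5 CT-NK libraries had 2086.7, 1807.9, 1440.7, 639.9 and 277.6 CPM in the order of their replicate numbers. Every knockout library was above every control library, a separation found for 64 of the 25829 tested genes (0.248%). In these bulk samples more cells of a type and more RNA per cell cannot be told apart. In KO-NK against CT-NK the log2 fold change was 2.00 (SE 0.38, adjusted p = 0.00554), a 3.99-fold difference. In KO-LK against CT-NK it was 1.74 (SE 0.38, adjusted p = 0.0126). Against CT-HK it was 2.55 in KO-NK (adjusted p = 9.12e-05) and 2.29 in KO-LK (adjusted p = 0.000271). These 4 calls held without each single library in turn. In the plot of levels by library Fos is the one member of the 8 with no overlap between the 12 knockout and the 11 control libraries.

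**Figure D1:**
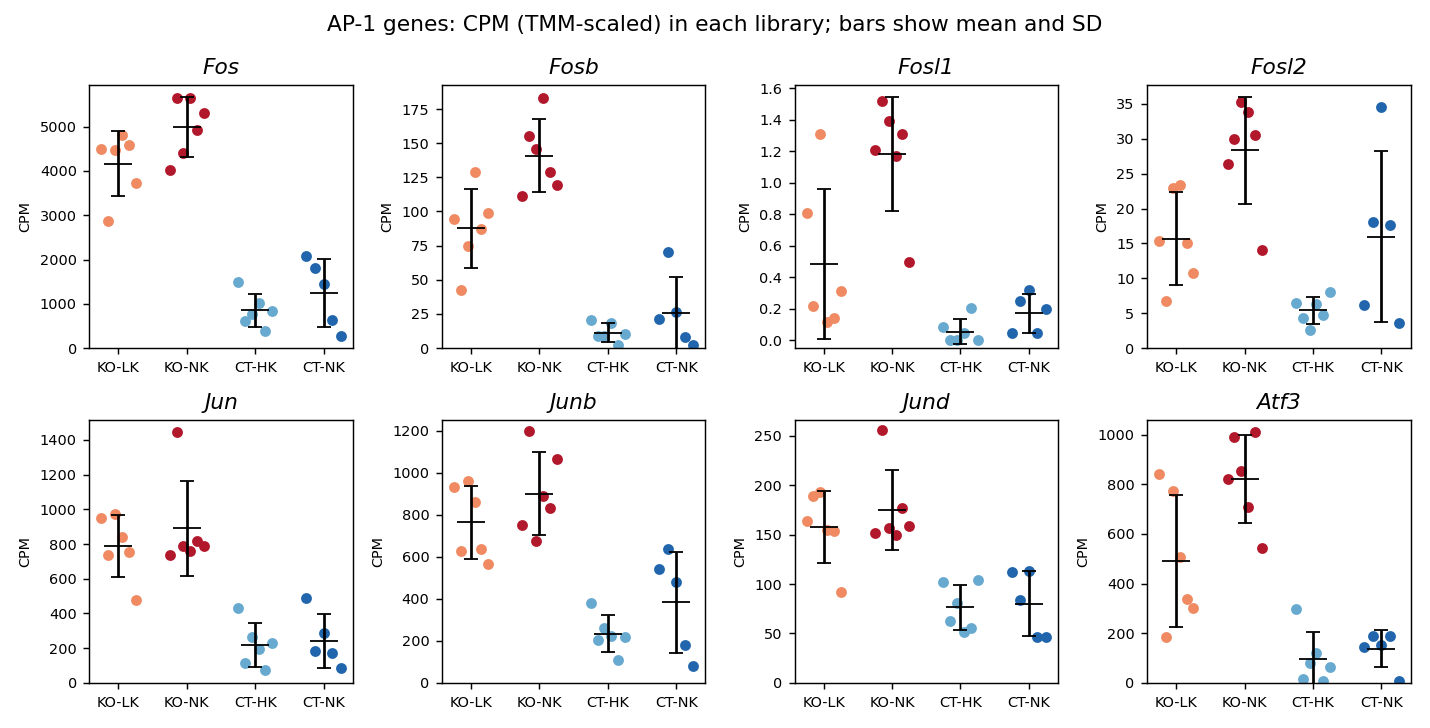
Levels of the 8 AP-1 genes in CPM (vertical axes, linear and different for each gene) in every library of KO-LK, KO-NK, CT-HK and CT-NK, with points for libraries and bars for the mean and SD (n = 6, 6, 6 and 5). Fos lies at 2876.8 CPM or more in the 12 knockout libraries and at 2086.7 CPM or less in the 11 control libraries, while Fosl2 libraries of CT-NK reach 34.5 CPM.

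Fosb, on chromosome 7 (19302696 to 19310051, minus strand), encodes another inducible Fos protein and, by splicing, a truncated long-lived form that gene totals cannot separate. It had 42.2, 90.8 and 128.9 CPM (lowest, median and highest) in KO-LK and 111.1, 137.4 and 183.4 CPM in KO-NK, against 2.23, 9.55 and 20.3 CPM in CT-HK. The CT-NK libraries had 21.4, 70.1, 26.7, 8.13 and 1.93 CPM. One pair of libraries overlapped between knockout and control, KO-LK replicate 2 at 42.2 CPM and CT-NK replicate 2 at 70.1 CPM. Relative to CT-NK, Fosb was called in KO-NK, at a log2 fold change of 2.45 (adjusted p = 0.0247, SE 0.57), but not in KO-LK, at 1.77 (adjusted p = 0.109, SE 0.56). Without CT-NK replicate 2 the second value was 2.59 (adjusted p = 0.0138). The first call was lost when KO-NK replicate 2 or 4, or any of CT-NK replicates 1, 3 and 4, was left out, with adjusted p-values of 0.0501 to 0.0638, and with the 2 groups alone (0.0821). Against CT-HK Fosb was called at 3.63 in KO-NK and 2.94 in KO-LK, 12.3-fold and 7.70-fold differences.

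Fosl1 and Fosl2 encode Fra-1 and Fra-2, Fos proteins that lack the strong activation domain of c-Fos. Fosl1, on chromosome 19 (5447547 to 5455946, plus strand), was near the limit of detection. It had 3 to 33 estimated counts in KO-LK and 12 to 37 in KO-NK, against 0 to 5 in CT-HK, with 3 libraries at 0, and 1 to 8 in CT-NK. The 6 KO-NK libraries were above all controls, and KO-LK overlapped both control groups. Fosl1 passed the low-count filter, which asks for 0.395 CPM in 5 libraries, through the KO-NK libraries: 2 KO-LK libraries and no control library reached that level. Relative to CT-HK it was called at 4.30 in KO-NK (adjusted p = 0.00237, SE 0.84) and at 3.02 in KO-LK (adjusted p = 0.0274, SE 0.82), with few counts behind either value. The second call ended without CT-HK replicate 2, 3 or 6 or KO-LK replicate 3 (adjusted p = 0.0591 to 0.0929). It also ended with no filter (adjusted p = 0.0563), with limma on log2(TPM + 1) (0.0912), the length offset (0.131) or the replicate block (0.0667), and without the 2 libraries richest in proximal tubule markers (0.0726). Relative to CT-NK, Fosl1 stood at 2.73 in KO-NK (adjusted p = 0.0952, SE 0.81). Ccdc85b overlaps 2767 bases of Fosl1 on the other strand and was called in no comparison. The strand setting of the counting is not given in the sources used here, so reads of such overlapping pairs cannot be told apart.

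Fosl2, on chromosome 5 (32135801 to 32157842, plus strand), had 6.70, 15.2 and 23.4 CPM (lowest, median and highest) in KO-LK and 14.0, 30.3 and 35.3 CPM in KO-NK, against 2.61, 5.52 and 8.05 CPM in CT-HK. The CT-NK libraries had 6.13, 18.1, 34.5, 17.6 and 3.57 CPM. CT-NK replicate 3 lay above 11 of the 12 knockout libraries, and the normal-potassium control was spread over both knockout groups. Fosl2 was not called in KO-NK against CT-NK (0.83, 95% interval -0.06 to 1.71) or in KO-LK against CT-NK (-0.03, 95% interval -0.90 to 0.84). The sign of the second value turned in 12 alternatives. Against CT-HK it was called in KO-NK (2.38, SE 0.42, adjusted p = 0.000984) and in KO-LK (1.53, SE 0.41, adjusted p = 0.0252). The KO-LK call ended without CT-HK replicate 2, 3 or 5 or KO-LK replicate 3, with adjusted p-values of 0.0509 to 0.0655, and with the replicate block (0.067).

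Jun, a gene of 1 exon on chromosome 4 (95049034 to 95052222, minus strand), encodes c-Jun, the most strongly activating Jun protein and the substrate of the Jun N-terminal kinases. It had 476.5, 796.3 and 970.5 CPM (lowest, median and highest) in KO-LK and 735.2, 789.0 and 1448 CPM in KO-NK, against 76.0, 214.9 and 428.6 CPM in CT-HK. The CT-NK libraries had 486.9, 186.3, 285.1, 171.1 and 83.0 CPM. Among all libraries only KO-LK replicate 6 and CT-NK replicate 1 crossed, at 476.5 and 486.9 CPM. Relative to CT-NK, Jun was called at 1.88 in KO-NK (adjusted p = 0.0122, SE 0.39) and at 1.70 in KO-LK (adjusted p = 0.0193, SE 0.39). Relative to CT-HK it was called at 2.03 in KO-NK (adjusted p = 0.00141) and at 1.85 in KO-LK (adjusted p = 0.00254). The KO-LK call against CT-NK ended without CT-NK replicate 2, 4 or 5 (adjusted p = 0.0530 to 0.0619), and the other 3 held without each single library. Junos, which overlaps 689 bases of Jun on the other strand, averaged 0.98 to 2.16 CPM over the groups and was called in no comparison.

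Junb, a gene of 1 exon on chromosome 8 (84974484 to 84978718, minus strand), encodes a Jun protein that can dampen the activity of c-Jun. It had 564.5, 751.1 and 961.7 CPM in KO-LK and 675.5, 859.6 and 1197.5 CPM in KO-NK, against 108.6, 222.7 and 379.7 CPM in CT-HK (lowest, median and highest). The CT-NK libraries had 539.9, 637.9, 481.6, 179.9 and 81.6 CPM. KO-NK lay above every control library, and CT-NK replicate 2 lay above 2 KO-LK libraries. Relative to CT-NK, Junb was not called in KO-NK, at 1.23 (adjusted p = 0.0989, SE 0.37, or 0.0161 with DESeq2), or in KO-LK, at 0.99 (adjusted p = 0.191, SE 0.37). Besides DESeq2, the KO-NK value was called with a filter of 5 CPM in 5 libraries (0.0182), the replicate block (0.0418) and limma on log2(TPM + 1) (0.00426) or log2(TPM + 0.1) (0.00421). It was not called under the other settings. Against CT-HK it was called in both, at 1.95 in KO-NK (adjusted p = 0.00133) and 1.71 in KO-LK (adjusted p = 0.00331). Prdx2 overlaps 351 bases of Junb on the other strand, averaged 386.8 to 558.2 CPM over the groups and had negative values in these 4 comparisons, none of them called.

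Jund, also of 1 exon on chromosome 8 (70698949 to 70700616, plus strand), encodes the Jun protein that resting cells make without induction. It had 91.9, 159.5 and 192.9 CPM (lowest, median and highest) in KO-LK and 150.2, 157.6 and 256.0 CPM in KO-NK, against 51.7, 72.1 and 104.6 CPM in CT-HK. The CT-NK libraries had 112.3, 83.6, 112.8, 46.1 and 46.7 CPM. KO-LK replicate 6 was the single knockout library inside the control range. Jund had the smallest fold changes of the 8 genes against CT-HK and the lowest biological coefficient of variation, 0.298. Relative to CT-NK it was called at 1.12 in KO-NK (adjusted p = 0.0216, SE 0.26) and at 0.97 in KO-LK (adjusted p = 0.0452, SE 0.26). Relative to CT-HK it was called at 1.20 in KO-NK (adjusted p = 0.00335) and at 1.05 in KO-LK (adjusted p = 0.00904). The first call ended without CT-NK replicate 2, 4 or 5 (adjusted p = 0.0502 to 0.0906), with no low-count filter (0.0986) and with the 2 groups alone (0.0505). The second ended without CT-HK replicate 2 or 3, CT-NK replicate 2, 4 or 5 or KO-LK replicate 3 (adjusted p = 0.0501 to 0.163), and with no low-count filter (0.15). Jund and Atf3 each overlap a predicted gene on the other strand, over 919 and 108 bases.

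Atf3, on chromosome 1 (191170296 to 191218039, minus strand), encodes a stress-induced zipper protein that pairs with Jun proteins and represses transcription as a homodimer. It had 186.0, 422.4 and 840.6 CPM (lowest, median and highest) in KO-LK and 542.8, 838.5 and 1009 CPM in KO-NK, against 6.74, 71.7 and 298.9 CPM in CT-HK. The CT-NK libraries had 146.2, 188.2, 153.8, 189.2 and 8.58 CPM. KO-NK stood above all controls, and KO-LK replicate 2, at 186.0 CPM, was inside the range of both control groups. Relative to CT-NK, Atf3 stood at 2.58 in KO-NK (adjusted p = 0.0669, SE 0.71) and at 1.84 in KO-LK (adjusted p = 0.204, SE 0.69), and neither was called. The KO-NK value was called by DESeq2 (adjusted p = 0.00238) and by limma on log2(TPM + 1) (0.00729) and log2(TPM + 0.1) (0.00932). Called by edgeR, it was so with a filter of 5 CPM in 5 libraries (0.0192), the replicate block (0.0367) or the 2 groups alone (0.0377). The same held without CT-HK replicate 1 (0.0405) or 5 (0.0353). It was not called under the other settings. Against CT-HK the calls were 3.08 in KO-NK (SE 0.68, adjusted p = 0.00632) and 2.34 in KO-LK (SE 0.66, adjusted p = 0.0356). The KO-LK call ended without CT-HK replicate 2, 3 or 6 or KO-LK replicate 1 or 3 (adjusted p = 0.0535 to 0.0760).

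On the same normal potassium diet, 4 of the 8 genes rose in the knockout. Of all genes tested, 0.937% were called higher in KO-NK against CT-NK. Fosl1 is left out of the medians, ranges and counts of separated groups that follow, since it entered the test through the KO-NK libraries. The median log2 fold change of the other 7 was 1.88, beside 0.15 over all genes, and 6 of the 7 had groups that did not overlap, beside 1.14% of all genes. In KO-LK against CT-NK 3 of 8 rose (Fos, Jun and Jund), with 0.914% of all genes called higher, a median of 1.70 beside -0.04 over all genes, and 1 gene without overlap (1.01% of all genes). These 2 comparisons share the CT-NK libraries, and diet differs along with genotype in the second. Without the 8 libraries rich in receptor counts, which left 3 KO-LK, 4 KO-NK, 5 CT-HK and 3 CT-NK libraries, no member was called in either. In KO-NK against CT-NK Fos then stood at 2.09 (adjusted p = 0.0661), Fosb at 3.14 (0.0526), Jun at 1.74 (0.165) and Jund at 1.02 (0.107). In KO-LK against CT-NK Fos stood at 1.71 (adjusted p = 0.186), Jun at 1.46 (0.341) and Jund at 0.88 (0.251).

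**Figure D2:**
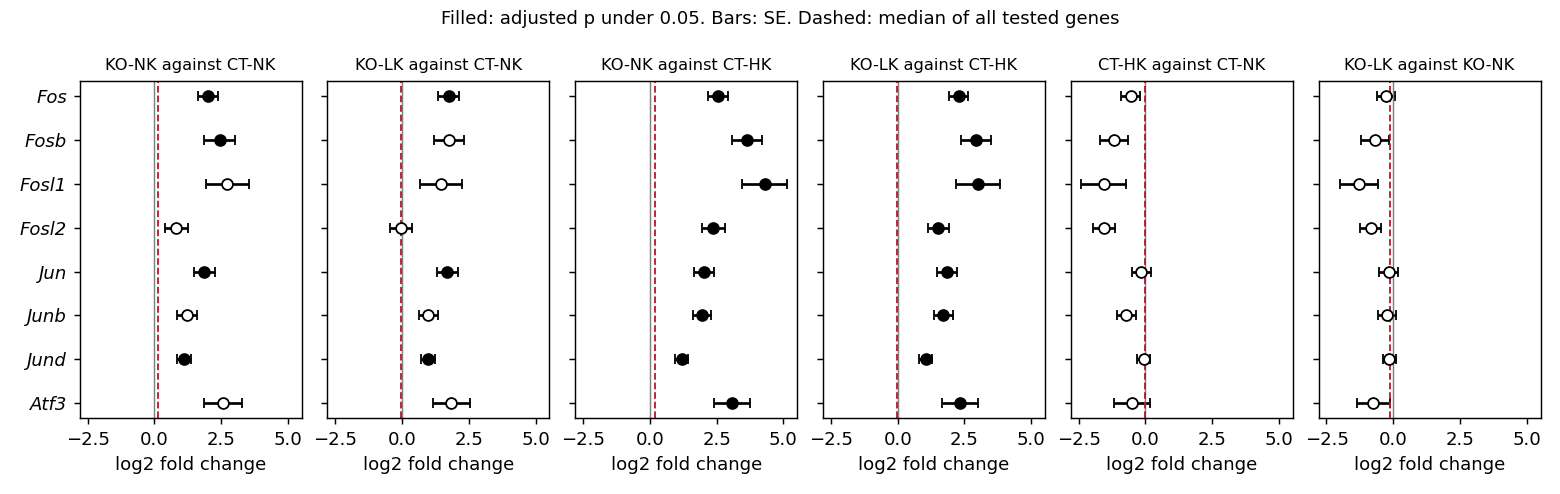
Log2 fold changes (horizontal axes) of the 8 genes in the 6 comparisons, named with the first group over the second, with bars for the SE, filled points for calls and a dashed line at the median of all tested genes. All 8 points are filled against CT-HK, 4 and 3 against CT-NK and none in the comparisons of diets. Fosl1, filled against CT-HK, passed the low-count filter through the KO-NK libraries.

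Against the control on high potassium the 7 genes other than Fosl1 rose in both knockout groups. Fosl1 was called too, but no control library reached the level of the low-count filter. In KO-NK against CT-HK 2.46% of all genes were called higher, and the 7 values ran from 1.20 (Jund) to 3.63 (Fosb) with a median of 2.38, beside 0.21 over all genes. No KO-NK library overlapped a CT-HK library in any of the 7, a separation found for 2.05% of all genes. In KO-LK against CT-HK 2.20% of all genes were called higher, and the values ran from 1.05 (Jund) to 2.94 (Fosb) with a median of 1.85, beside -0.01. There 4 genes did not overlap (Fos, Fosb, Jun and Junb), beside 1.66% of all genes. Both comparisons differ in diet as well as genotype and share the CT-HK libraries. Without the 8 libraries rich in receptor counts all 8 calls remained in KO-NK against CT-HK, and 4 of 8 in KO-LK against CT-HK (Fos, Fosb, Junb and Jund). Of the calls that ended there, Fosl2 stood at 1.52 (adjusted p = 0.194) and Jun at 1.83 (0.051), values close to those with all libraries, Atf3 at 1.93 (0.297) and Fosl1 at 1.39 (0.518), against 3.02 with all libraries. Leaving out CT-HK replicate 2 or 3 or KO-LK replicate 3 left 5 of the 8 calls in KO-LK against CT-HK.

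The direction of calls over all genes differed between edgeR on counts and limma on TPM, which differ in test, unit and scaling together. Of 439 genes called in KO-NK against CT-NK, 55.1% had a higher level in KO-NK, and of 3041 called with limma 95.6% did, on log2(TPM + 1), which leaves out TMM. For KO-LK against CT-NK the shares were 44.7% and 95.6%, for KO-NK against CT-HK 42.6% and 97.0%, and for KO-LK against CT-HK 40.1% and 96.8%. With DESeq2 size factors in edgeR, where the scaling alone changed, they were 52.3%, 39.8%, 35.2% and 32.5% in these 4 comparisons. With a transcript length offset they were 53.7%, 55.1%, 50.4% and 56.0%. The 4 and 3 AP-1 calls against CT-NK became 8 and 6 with limma on log2(TPM + 1). They stayed at 4 and 3 with DESeq2 size factors and with the length offset. No called member turned its sign under any setting.

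Diet alone moved no AP-1 gene past the threshold in either genotype. In CT-HK against CT-NK all 8 values were negative, from -1.57 (Fosl1) to -0.07 (Jund), and none was called. The smallest p was that of Fosl2, with 5.43 ± 1.90 CPM in CT-HK and 16.0 ± 12.3 CPM in CT-NK (SD). Its log2 fold change was -1.56 (SE 0.42, unadjusted p = 0.00115 from the model over all genes, adjusted p = 0.872). In KO-LK against KO-NK the values were again all negative, from -1.28 (Fosl1) to -0.15 (Jund), and none was called. Fosl2 averaged 15.7 ± 6.62 CPM in KO-LK and 28.4 ± 7.69 CPM in KO-NK (-0.85, SE 0.40, adjusted p = 0.928). Fos differed by -0.26 between the knockout diets (SE 0.34), with a 95% interval of -0.98 to 0.46. These libraries do not tell differences within that interval apart. By edgeR with all libraries 0 genes were called in either diet comparison (0% of 25829). Without CT-HK replicate 6 edgeR called 169 genes in CT-HK against CT-NK, and without KO-LK replicate 1 it called 3 in KO-LK against KO-NK, no AP-1 gene among them. Unadjusted p-values were under 0.05 for 927 genes in CT-HK against CT-NK, 2 of them AP-1 genes, and for 732 in KO-LK against KO-NK, 1 of them an AP-1 gene. DESeq2 called 16 and 24 genes in these comparisons, no AP-1 gene among them.

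Levels were compared between genes in TPM, which divide by transcript length. Fos was the most abundant of the 8 in every group, with 2061.6 ± 376.1 TPM in KO-LK and 2434.3 ± 327.4 TPM in KO-NK, against 299.7 ± 153.4 TPM in CT-HK and 492.0 ± 307.0 TPM in CT-NK. Ranked by TPM among all genes of a library, it stood between place 29 and 57 in the knockout libraries and between place 120 and 829 in the control libraries. Junb followed with 457.2 ± 120.4 TPM in KO-LK and 520.5 ± 49.4 TPM in KO-NK, against 95.4 ± 39.4 TPM in CT-HK and 184.8 ± 129.6 TPM in CT-NK. Atf3 averaged 264.4 ± 155.9 TPM in KO-LK and 434.2 ± 111.0 TPM in KO-NK, against 36.8 ± 39.4 TPM in CT-HK and 60.2 ± 37.5 TPM in CT-NK. Jun (46.7 to 266.8 TPM over the group means) was of the same order as Atf3, and their libraries overlapped within every group. Jund ranged over 33.4 to 111.7 TPM. The highest group means of Fosb, Fosl2 and Fosl1, all in KO-NK, were 37.6, 4.43 and 1.61 TPM.

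The mixture of AP-1 transcripts was described by the share of each gene. Fos made up 65.8 ± 4.90% of the summed TPM of the 8 genes in KO-LK and 63.8 ± 3.30% in KO-NK, against 58.4 ± 3.31% in CT-HK and 57.2 ± 3.87% in CT-NK. Jund, the member made without induction, held 3.35 ± 1.07% in KO-LK and 2.93 ± 0.397% in KO-NK, against 7.48 ± 2.62% in CT-HK and 6.17 ± 3.45% in CT-NK. Junb held 14.5 ± 1.68% in KO-LK and 13.8 ± 1.60% in KO-NK, against 19.3 ± 2.62% in CT-HK and 20.8 ± 3.04% in CT-NK. Its shares did not overlap between knockout and control, at 11.8% to 16.4% in knockout and 16.6% to 25.1% in control libraries. The ratio of Fos family to Jun family TPM was 2.68 (2.00 to 3.44) in KO-LK and 2.78 (2.15 to 3.31) in KO-NK, against 1.68 (1.36 to 2.24) in CT-HK and 1.69 (1.35 to 1.91) in CT-NK (mean and range). One CT-HK library lay inside the knockout range of that ratio. These shares are a description with no test.

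**Figure D3:**
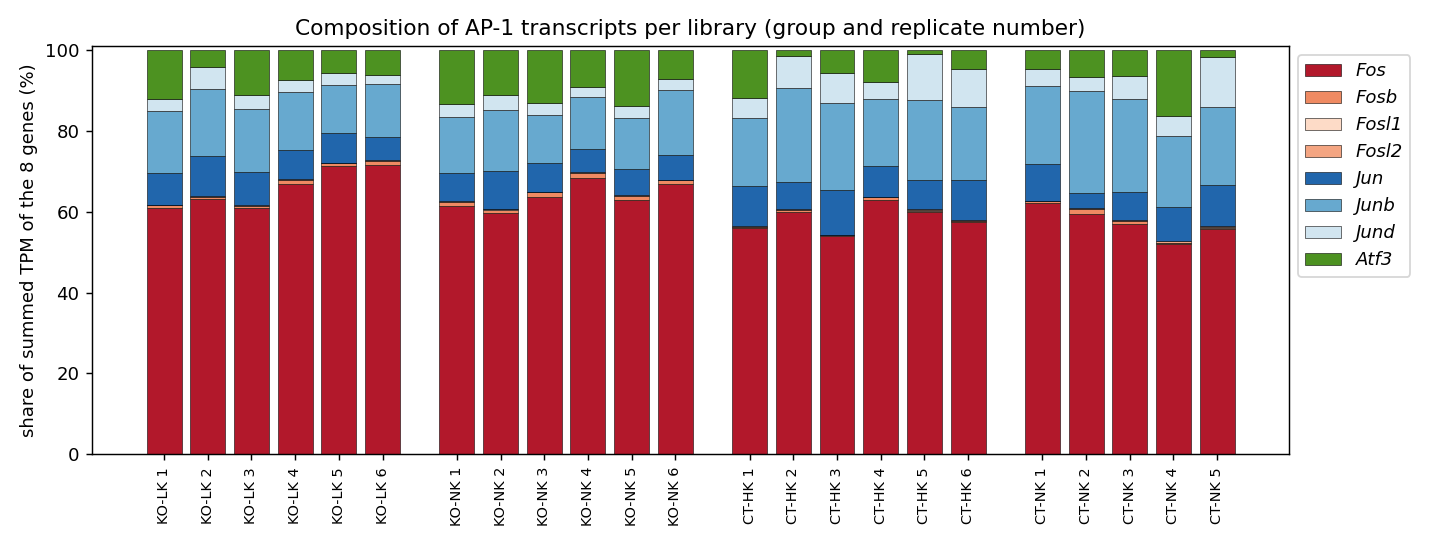
Share of each AP-1 gene in the summed TPM of the 8 genes (vertical axis, percent) in every library, grouped as KO-LK, KO-NK, CT-HK and CT-NK. Fos fills 59.6% to 71.6% of each knockout bar and 51.9% to 63.0% of each control bar, with Junb and Jund bands that are wider on average in the controls.

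The control libraries had the larger relative spread of Fos and Jun. The coefficient of variation of Fos was 17.5% in KO-LK and 13.6% in KO-NK, against 44.0% in CT-HK and 61.5% in CT-NK. That of Jun was 22.9% in KO-LK and 30.9% in KO-NK, against 57.1% in CT-HK and 63.6% in CT-NK. Not every member had the larger spread in both control groups. That of Fosl2 was 42.2% in KO-LK and 35.1% in CT-HK, and that of Fosl1 98.9% in KO-LK and 71.4% in CT-NK. The extremes were often the same library. CT-NK replicate 5 was lowest of its group for 6 of the 8 genes, and CT-HK replicate 5 for 5. CT-HK replicate 1 was highest for 5, KO-NK replicate 2 and KO-LK replicate 3 for 4 each. Summed over the 8 genes, levels were 4668 to 7487.8 CPM in KO-LK and 6614.2 to 9733.5 CPM in KO-NK, against 641.3 to 2720.7 CPM in CT-HK and 503.1 to 3399.6 CPM in CT-NK.

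Within groups the AP-1 genes moved together, Fosl1 apart. Deviations of log2 CPM from the group mean correlated over the 23 libraries at Pearson r = 0.95 for Fos with Junb, 0.92 for Fos with Fosb, 0.81 for Fos with Jun and with Atf3, and 0.80 for Jun with Jund. Fosl2 was less like the others (r = 0.27 with Jun to 0.56 with Fosb), and Fosl1 stood between -0.11 and 0.29 with each. Among 9220 genes of at least 10 CPM, those most like Fos were Egr1 (r = 0.956), Btg2 (0.928), Zfp36 (0.922), Ier2 (0.917) and Gdf15 (0.870). Those most like Jun were Egr1 (0.892), Btg2 (0.868), Irf2bpl (0.862), Nr4a1 (0.857) and Phf13 (0.838). These values are descriptions: the points share their library and its scaling, and the control libraries, which deviate most, weigh most in them.

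**Figure D4:**
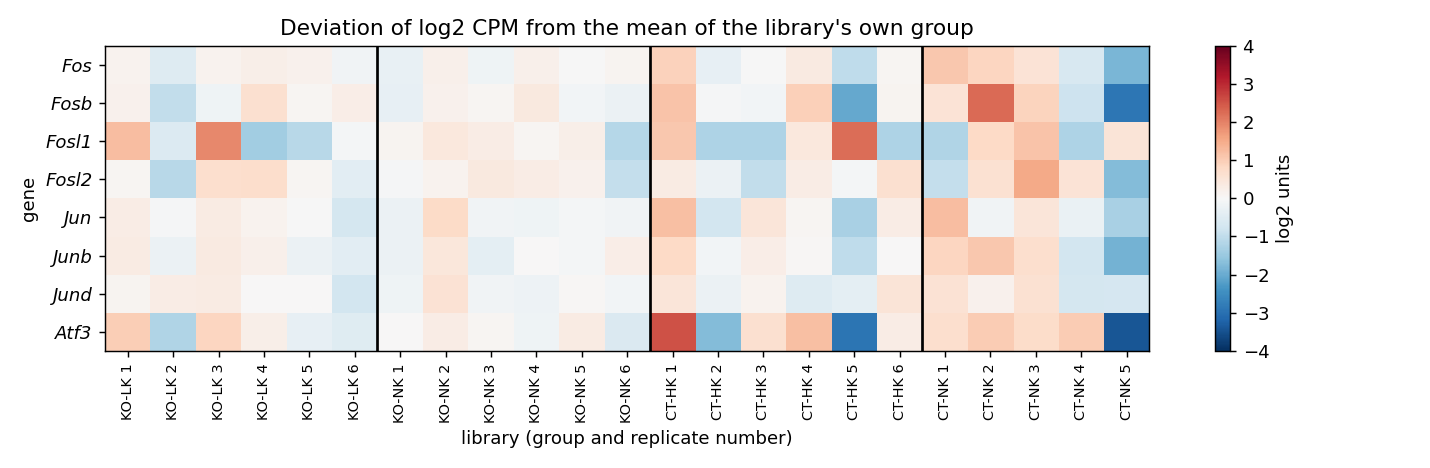
Deviation of log2 CPM from the mean of the library's own group (colour, log2 units, red above and blue below) for the 8 genes (rows) in the 23 libraries (columns; black lines part KO-LK, KO-NK, CT-HK and CT-NK). Columns of one colour, such as CT-NK replicate 5 in blue, show genes that deviate together; Fosl1 rests on a few counts, with 3 CT-HK libraries at 0.

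Genes that act with or upstream of AP-1 were counted by list. Of 21 other basic leucine zipper genes tested none was called against CT-NK. Against CT-HK 3 rose in KO-NK and 2 in KO-LK, beside 2.46% and 2.20% of all genes called higher. Atf4, the translation-controlled factor of the integrated stress response, rose in both, with 96.4 ± 16.7 CPM in KO-LK and 124.2 ± 21.2 CPM in KO-NK, against 51.9 ± 8.96 CPM in CT-HK. The small Maf genes Mafk (1.21, SE 0.29) and Maff (1.20, SE 0.35) rose in KO-NK. The differences between the knockout groups were -0.37 for Mafk and -0.31 for Maff, neither called.

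Of 25 mitogen-activated kinase genes 1 rose in each of the 4 comparisons, in which 0.914% to 2.46% of all genes were called higher. It was Map3k1, a kinase upstream of the Jun N-terminal kinases, with 73.1 ± 23.7 CPM in KO-LK and 76.5 ± 14.8 CPM in KO-NK, against 37.7 ± 5.98 CPM in CT-HK and 41.9 ± 10.8 CPM in CT-NK. Its log2 fold change was 0.87 in KO-NK against CT-NK (adjusted p = 0.0298) and 0.80 in KO-LK against CT-NK (adjusted p = 0.0408). Srf, the factor that binds the serum response element, was the called member of its list of 6. It averaged 27.5 ± 7.25 CPM in KO-LK and 36.4 ± 9.20 CPM in KO-NK, against 11.5 ± 3.92 CPM in CT-HK and 15.5 ± 6.14 CPM in CT-NK. It rose in KO-NK against CT-NK (1.23, adjusted p = 0.0116) and in both knockout groups against CT-HK (1.66 in KO-NK, 1.26 in KO-LK), and stood at 0.83 in KO-LK against CT-NK (adjusted p = 0.0983). Among 10 genes of AP-1 protein turnover and cofactors none was called higher.

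Of 22 tested genes known as AP-1 targets, out of 26 listed, 1 rose against CT-NK in either knockout group. The shares of all genes called higher were 0.937% in KO-NK and 0.914% in KO-LK. Against CT-HK 6 rose in each, beside 2.46% of all genes in KO-NK and 2.20% in KO-LK. A fall was called for 1 gene, in KO-NK against CT-HK, where 42.6% of the 1494 genes called were higher. Plau, the urokinase gene, was called in all 4 comparisons, with 20.9 ± 7.89 CPM in KO-LK and 18.2 ± 5.37 CPM in KO-NK, against 7.64 ± 3.35 CPM in CT-HK and 8.35 ± 2.64 CPM in CT-NK. Mmp14, a membrane metalloproteinase, rose by 1.14 in either knockout group against CT-HK. Hbegf, a ligand of the EGF receptor, rose by 1.99 in KO-NK and 1.92 in KO-LK against CT-HK, and stood at 0.47 in KO-NK and 0.39 in KO-LK against CT-NK, whose libraries averaged 73.7 ± 63.7 CPM. Tnfrsf12a, the receptor of TWEAK, rose by 1.35 in KO-NK and 1.58 in KO-LK against CT-HK. The median of the list was 0.09 in KO-NK and 0.21 in KO-LK against CT-NK, beside 0.15 and -0.04 over all genes.

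Genes outside AP-1 that are known to respond to tissue dissociation rose in part as well. Of 31 tested, relative to CT-NK 9 rose in KO-NK and 4 in KO-LK, beside 0.937% and 0.914% of all genes. Relative to CT-HK 22 rose in KO-NK and 16 in KO-LK, beside 2.46% and 2.20%, and none was called lower. Their summed level was 8757.3 to 14718.6 CPM in KO-LK and 12375 to 19284.7 CPM in KO-NK, against 3609.7 to 8569.8 CPM in CT-HK and 4350.2 to 10306.4 CPM in CT-NK. Myc, the growth regulator, averaged 36.3 ± 20.6 CPM in KO-LK and 40.6 ± 27.5 CPM in KO-NK, against 1.37 ± 0.680 CPM in CT-HK and 2.95 ± 1.60 CPM in CT-NK. Ier5 rose by 1.62 in KO-NK and 1.25 in KO-LK against CT-NK. Egr2 (2.94) and Klf6 (1.56) rose in KO-NK against CT-NK, and stood at 1.60 and 0.95 in KO-LK (adjusted p = 0.0878 and 0.126). Within groups the sum of this list correlated with Jun at r = 0.84, with Junb and with Atf3 at 0.77 and with Fos at 0.72 over the 23 libraries. It correlated least with Fosl1, at -0.07. The part of tissue handling in the AP-1 levels was not tested.

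**Figure D5:**
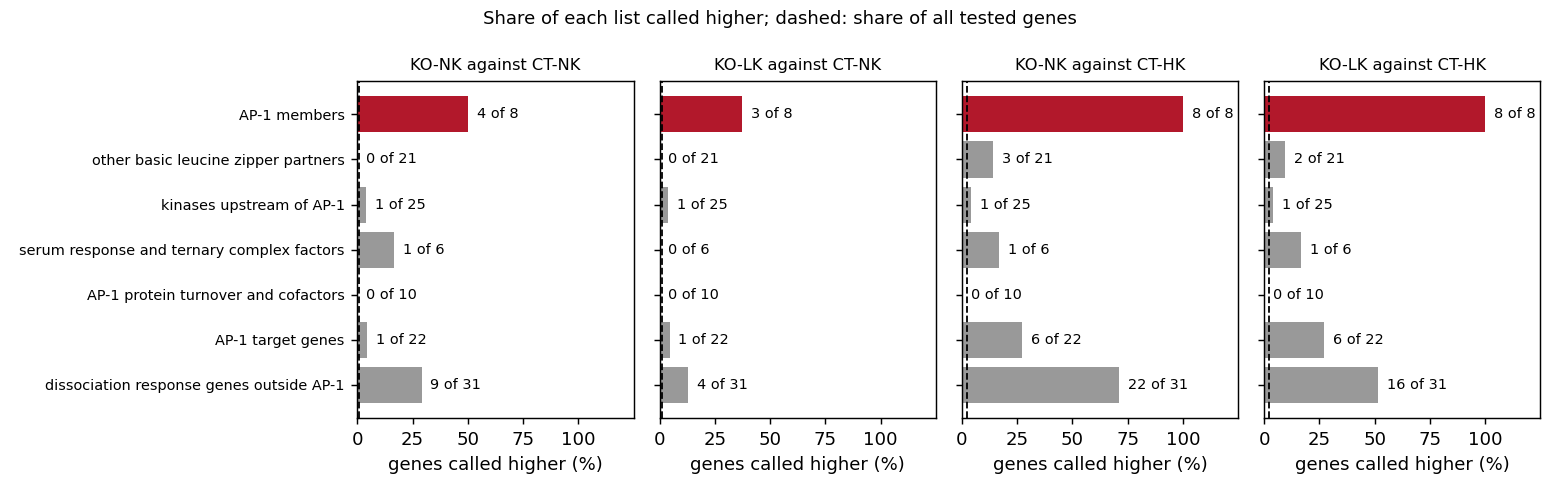
Share of each list called higher (horizontal axes, percent of tested genes; counts beside the bars) in the 4 comparisons of knockout with control, with AP-1 in red and a dashed line at the share of all tested genes. AP-1 has 4, 3, 8 and 8 of 8 genes called, the dissociation list 9, 4, 22 and 16 of 31, and the other lists at most 6. The AP-1 bars include Fosl1, which passed the low-count filter through the KO-NK libraries. Without Fosl1 the AP-1 calls are 4, 3, 7 and 7 of 7.

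Other measures are given beside these genes. Transcripts encoded in mitochondria made up 7.93% to 13.3% of counts in KO-LK and 9.40% to 13.4% in KO-NK, against 13.0% to 21.4% in CT-HK and 10.8% to 19.9% in CT-NK. Within groups their share correlated with the AP-1 genes at r = -0.72 (Fosb) to -0.02 (Fosl1) over the 23 libraries, with Fos at -0.54. Each of 12 markers of the proximal tubule was below 0 on the log2 scale in each of the 6 comparisons, with 1 call, in KO-LK against CT-HK. Their summed level was 197.8 to 1059.4 CPM in KO-LK and 496.4 to 3687 CPM in KO-NK, against 179.1 to 17095.2 CPM in CT-HK and 307.5 to 9772 CPM in CT-NK. The medians were 364.8 CPM in KO-LK and 768.9 CPM in KO-NK, against 438 CPM in CT-HK and 4048.9 CPM in CT-NK. The 5 CT-HK libraries other than replicate 6 were at 521.4 CPM or less, so the mean of that group rests on 1 library. None of the 12 was at 0 in any library. Within groups their sum correlated with the AP-1 genes at r = -0.37 to -0.05. Without the 2 libraries richest in these markers, CT-HK replicate 6 and CT-NK replicate 5, the calls were 3 of 8 in KO-NK against CT-NK and 1 of 8 in KO-LK against CT-NK. The values behind the calls that ended were 0.98 for Jund in KO-NK against CT-NK (adjusted p = 0.0769), and 1.48 for Jun (0.0551) and 0.83 for Jund (0.122) in KO-LK against CT-NK, beside 1.12, 1.70 and 0.97 with all libraries.

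The 15 connecting tubule and principal cell markers summed to 9821.7 to 15416.7 CPM in KO-LK and 6883.1 to 17541.6 CPM in KO-NK, against 15119.4 to 34378 CPM in CT-HK and 12759.7 to 21928.8 CPM in CT-NK. The list had 2 markers called lower and none higher in KO-NK against CT-NK, while KO-LK against CT-NK had 1 higher and 3 lower. Either knockout group against CT-HK had 1 called higher and 3 lower. In KO-NK and KO-LK against CT-NK 9 of the 15 had positive log2 fold changes, with medians of 0.07 and 0.04. In KO-NK and KO-LK against CT-HK 7 and 8 were positive, with medians of -0.07 and 0.02. Intercalated cell markers, 8 in all, had no call in any comparison. Leukocyte markers summed to 380.1 to 814.0 CPM in KO-LK and 219.7 to 807.2 CPM in KO-NK, against 326.4 to 617.9 CPM in CT-HK and 229.2 to 1041.9 CPM in CT-NK, with none of 10 called. All 10 were higher in KO-LK than in either control, with median log2 fold changes of 0.2 (CT-NK) and 0.45 (CT-HK). For KO-NK 9 were lower relative to CT-NK (median -0.49) and 8 relative to CT-HK (-0.21). KO-NK had 1 of 10 fibroblast, pericyte and smooth muscle markers called lower against each control, KO-LK none. Their values against CT-NK were negative for 9 in KO-NK (median -1.2) and all 10 in KO-LK (-0.98). Those against CT-HK were positive for 6 in KO-NK and 8 in KO-LK. The part of the makeup of the tubules and of the mitochondrial share in the AP-1 levels was not tested.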

How the data were processed

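RNA of dissected tubules was converted with SMART-Seq HT and Nextera XT, per the labels' protocols. The authors deposited estimated counts per gene, 35.9% of them not whole, and the submitters' processing notes name Salmon 0.14.10 and GRCm38.p6, with no role stated. The authors also deposited TPM values, which divide by transcript length. The annotation and strand setting are not given in the sources used here. All 54393 gene IDs matched a GENCODE symbol.

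Estimated counts were rounded and fitted with edgeR 4.0.16 in R 4.3.3, with TMM scaling, the default low-count filter (25829 genes left), 1 mean per group over 23 libraries and 19 residual degrees of freedom. Quasi-likelihood F tests were adjusted over all tested genes (Benjamini-Hochberg, 0.05). The SE is the fold change divided by the root of F. The fit was checked on simulated counts with known changes. Alternatives used DESeq2 1.42.0, limma 3.58.1, other filters and scalings, a length offset, a replicate block and fewer libraries. No pair of libraries within a group agreed within sampling noise (chi-square per degree of freedom of at least 23.4). Named genes are the 8 members, Nr3c2, Sgk1, up to 4 called genes of smallest p per list, the 5 genes most like Fos and Jun, and Aqp2. The genes, lists and alternatives were chosen with earlier results of these data known. Some genes of these lists are not reported here.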

Additional observations from a re-analysis of the deposited data

Results flagged for a closer look

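Each of the 8 genes was checked in each of the 4 groups for a library far from the others, 32 checks in all, and 4 stood apart. Chance alone flags about 1 in 20 groups. In KO-NK replicate 2, Jun was at 1448 CPM, with the next library at 815.2 CPM, and Jund was at 256 CPM, with the next at 177.5 CPM. Without that library Jun and Jund were still called in KO-NK against CT-NK. In KO-NK replicate 6, Fosl1 was at 0.494 CPM, below the next library at 1.17 CPM. In CT-NK replicate 5, Atf3 was at 8.58 CPM, below the next library at 146.2 CPM, and proximal tubule markers summed to 9772 CPM there, the highest sum of CT-NK.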

How the results depend on the processing

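Of the single-gene values under alternatives other than leaving out 1 library, 462 kept their direction and side of the threshold, 22 gained a call, 24 lost one and 7 turned their sign. Counts of members called, Fosl1 included, moved as follows. With limma on log2(TPM + 1) and log2(TPM + 0.1), KO-NK against CT-NK had 8 and 7 calls in place of 4, and KO-LK against CT-NK 6 and 6 in place of 3. The median of all genes in KO-NK against CT-NK was 0.2 with a pseudocount of 1 and 0.38 with 0.1, both with limma. With edgeR on counts it was 0.15. Without the 8 libraries rich in receptor counts, the calls were 0 in KO-NK against CT-NK, 0 in KO-LK against CT-NK and 4 in KO-LK against CT-HK. Without the 2 libraries richest in proximal tubule markers, KO-LK against CT-NK had 1 call. Fewer libraries entered these fits, and beyond that the cause was not tested. Leaving out 1 library gave 2 to 5 calls in KO-NK against CT-NK (2 without CT-NK replicate 4), 1 to 3 in KO-LK against CT-NK (1 without CT-NK replicate 4 or 5), 8 in KO-NK against CT-HK and 5 to 8 in KO-LK against CT-HK. It gave 0 in both diet comparisons.

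Signs turned only for values near 0 or with few counts. Fosl2 in KO-LK against CT-NK, -0.03, became 0.32 and 0.58 with limma (pseudocounts 1 and 0.1), 0.04 with the length offset, 0.11 with the replicate block, 0.02 with the 2 groups alone and 0.04 without the receptor-rich libraries, and ran from -0.28 to 0.47 without 1 library. Fosl1 in KO-LK against CT-NK became -0.26 without the receptor-rich libraries. Without 1 library, CT-HK against CT-NK ran from -0.46 to 0.27 for Jun and from -0.22 to 0.08 for Jund, and KO-LK against KO-NK from -0.23 to 0.08 for Jun and from -0.19 to 0.05 for Jund. Over all genes, alternatives other than leaving out 1 library called 186 to 3068 genes in KO-NK against CT-NK (439 as reported), 191 to 4361 in KO-LK against CT-NK (528), 799 to 5643 in KO-NK against CT-HK (1494), 825 to 6951 in KO-LK against CT-HK (1418), 0 to 16 in CT-HK against CT-NK (0) and 0 to 24 in KO-LK against KO-NK (0). Without 1 library the ranges were 233 to 919, 296 to 1503, 1058 to 1929, 1080 to 2432, 0 to 169 (169 without CT-HK replicate 6) and 0 to 3 in the same order. Replicate numbers did not pair the libraries: same-numbered deviations correlated at -0.52 to 0.58, and no comparison had every pair above 0. With a replicate block the calls were 6, 3, 8 and 6 in the 4 comparisons of knockout with control, against 4, 3, 8 and 8, and 0 in both diet comparisons. Depth limits Fosl1, with at most 36.6 estimated counts in a library. Fosl1 did not pass the filter of 5 CPM in 5 libraries in any comparison, nor the filter with the 2 groups alone in 3 of them, and DESeq2 gave it no adjusted p in the 4 comparisons of knockout with control.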
